A study of Cucumis melo with 4 samples.

Results

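CmNOR, a melon (Cucumis melo) transcription factor of the NAC family, had 420 binding peaks that the authors classed as distal intergenic and that began more than 3 kb and at most 10 kb downstream of the start of their assigned gene. They were chosen by those 2 columns of the authors' peak list, class and distance, and made up 7.65% of its 5493 peaks (95% exact interval 6.96 to 8.38) and 16.4% of its 2563 distal intergenic peaks. Each gene had been assigned by the authors. The 420 peaks belonged to 410 genes, and all 420 lay past the far end of that gene, on the side of its 3' end. The label "distal" did not hold for all of them: 91 of the 420 lay within 3 kb of the gene end, the nearest 26 bp away.

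The peaks were found by DAP-seq (DNA affinity purification sequencing). Here genomic DNA fragments are offered to a tagged protein purified from bacteria, and those it holds back are sequenced. There were 2 libraries with MBP-His-CmNOR, a fusion of CmNOR with a His tag and maltose-binding protein, and 2 negative controls with MBP-His, the tag without CmNOR. All 4 libraries used melon genomic DNA and protein from E. coli, so binding was measured outside melon cells. Any effect of the tissue or stage that the DNA came from was not tested. The peaks were given as 1 combined list with positions, an assigned gene, a class and Gene Ontology (GO) terms, but no read count, enrichment or p-value. Library depth is therefore unknown, the CmNOR and control libraries were not compared, and the agreement of libraries within a group was not measured. Intervals given for shares cover counting error only, and every test describes this list, since peaks are not replicate samples. No genome sequence was used, so the peaks are shown by position and not by sequence, and no source used here names the genome build of the positions.

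NAC factors are plant-specific transcription factors that bind DNA through a conserved N-terminal domain. CmNOR is named after the tomato gene NON-RIPENING, known from a mutant whose fruit does not ripen. DAP-seq offers the factor naked DNA, so a site can be recorded in open or closed chromatin, near a promoter or far from one. The assignment rule is not stated, but for all 420 peaks no other gene of the list had a nearer start than the assigned one, and the list shows no other link between peak and gene. Such a site can lie in the 3' flank of one gene, between 2 genes, or in sequence that the annotation leaves empty.

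The distal intergenic class held fewer peaks downstream than upstream at the same distance from the gene start. The list held 804 distal intergenic peaks in the same distance range upstream, so the downstream-to-upstream ratio was 0.522 (95% exact interval 0.463 to 0.589). This ratio is a description with no test, because the set was chosen by class and distance, the first part of the downstream range is taken up by the gene itself, and some peaks past gene ends are in the authors' downstream class. With the distal and downstream classes put together, 555 peaks lay past the gene end and 827 upstream, a ratio of 0.671. The ratio was 0.268 at 3 to 4 kb, with 52 peaks against 194. It was 0.482 at 4 to 5 kb, 0.539 at 5 to 6 kb, 0.686 at 6 to 7 kb, 0.677 at 7 to 8 kb and 0.795 at 8 to 9 kb. In the last bin, 9 to 10 kb, it was 0.506, with 39 peaks against 77. The downstream counts thus stayed between 52 and 70 per kb up to 9 kb, while the upstream counts fell in every step. Among peaks assigned to genes of at most 3 kb the ratio was 0.71, with 323 against 455 peaks.

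**Figure D1:**
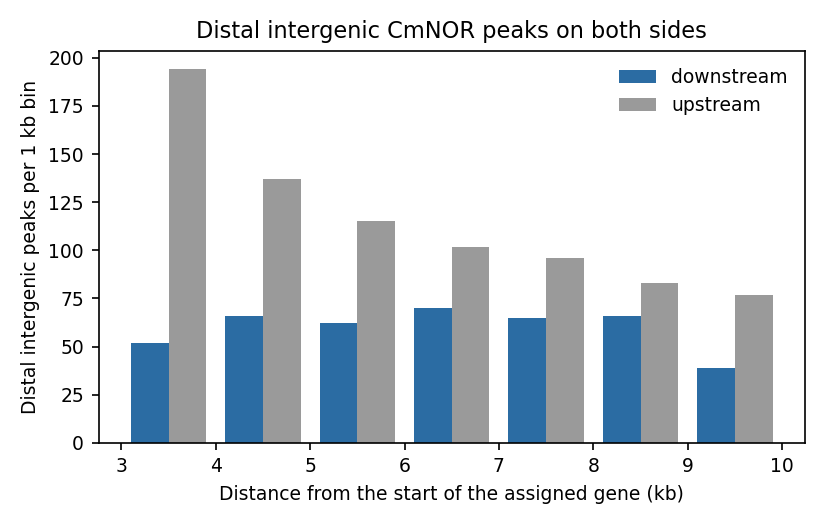
Number of distal intergenic CmNOR peaks in each 1 kb bin of distance from the start of the assigned gene, downstream (blue, 420 peaks) and upstream (grey, 804 peaks). The upstream bars fall from 194 to 77 peaks, and the downstream bars stay between 39 and 70.

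Gene length differed between peaks far past the gene end and peaks near it, which the distance limits in part impose. For the 329 peaks more than 3 kb past the end the median gene length was 994 bp, and 160 of 320 genes (50.0%) were under 1 kb. For the 91 nearer peaks the median was 3210 bp, and 7 of 90 genes (7.78%) were under 1 kb. Over the whole set the median length in the authors' list was 1414 bp (quartiles 389 and 2894, longest 9157), against 2522 bp (762 and 4896) for the 767 genes of the upstream distal peaks. Of the 410 genes, 167 (40.7%) were under 1 kb, against 220 of the 767 (28.7%). A gene longer than the distance to its peak cannot be passed, so no test was made of this difference. The median distance from the gene start was 6368 bp and the median distance past the gene end was 4473 bp (quartiles 3192 and 6060). At the lower limit, the nearest peak inside it lay 3008 bp from the start of MELO3C003725.2 (401 bp wide). The nearest one outside, past the end of MELO3C021579.2 at 2994 bp (542 bp wide), was in the promoter class. At the upper limit, the peak of MELO3C022044.2 lay inside at 9991 bp (320 bp wide) and that of MELO3C033666.2 outside at 10015 bp (456 bp wide). For 419 of the 420 peaks, no other gene of the list came nearer than the end of the assigned gene. Genes without a peak are not in the list and could not be counted.

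The strand of the assigned gene was unequal among these peaks. The gene was on the plus strand for 261 of 420 peaks, 62.1% (95% exact interval 57.3 to 66.8), against 408 of 804 upstream distal peaks, 50.7% (47.2 to 54.3). The odds ratio was 1.59 (1.25 to 2.03) by a two-sided Fisher's exact test (p = 0.00017, and 0.00087 when adjusted over all 5 such comparisons). The set was chosen by class, and that label itself divided by strand near gene ends, as shown next. The p-value therefore describes the labels and is no result about binding. The whole list was near balance, with 2777 of 5493 peaks on plus-strand genes, 50.6%.

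The inequality was found within 3 kb of gene ends. Of the 91 peaks there, 91 were assigned to plus-strand genes and 0 to minus-strand genes, which allows a minus-strand share of up to 3.30%. The plus-strand counts were 23 in the first kb past the end, 33 in the second and 35 in the third. Beyond 3 kb both strands appeared at once, with 48 plus and 40 minus at 3 to 4 kb, 42 and 32 at 4 to 5 kb, 27 and 30 at 5 to 6 kb, 23 and 29 at 6 to 7 kb and 18 and 19 at 7 to 8 kb. Over these 329 peaks the plus share was 51.7% (46.1 to 57.2), and against the upstream peaks the odds ratio was 1.04 (Fisher's exact p = 0.79). This split was chosen after the data were seen.

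The authors' downstream class, labelled in 1 kb bands up to 3 kb, held mostly the opposite strand. At the same distances from the gene start and within 3 kb past the end, it held 129 peaks, 12 on plus-strand and 117 on minus-strand genes. Put together, both classes had 103 plus and 117 minus peaks, 46.8% plus (40.1 to 53.6). The same zone was thus labelled distal intergenic for 91 of 103 plus-strand peaks and for 0 of 117 minus-strand peaks. The classes are separate rows of the list, so no peak was counted in both. A set named distal intergenic therefore mixes 329 peaks more than 3 kb from the assigned gene end with 91 that are nearer. The comparisons with upstream peaks below are also given without the 91 where the adjusted p of Fisher's exact test crosses 0.05.

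**Figure D2:**
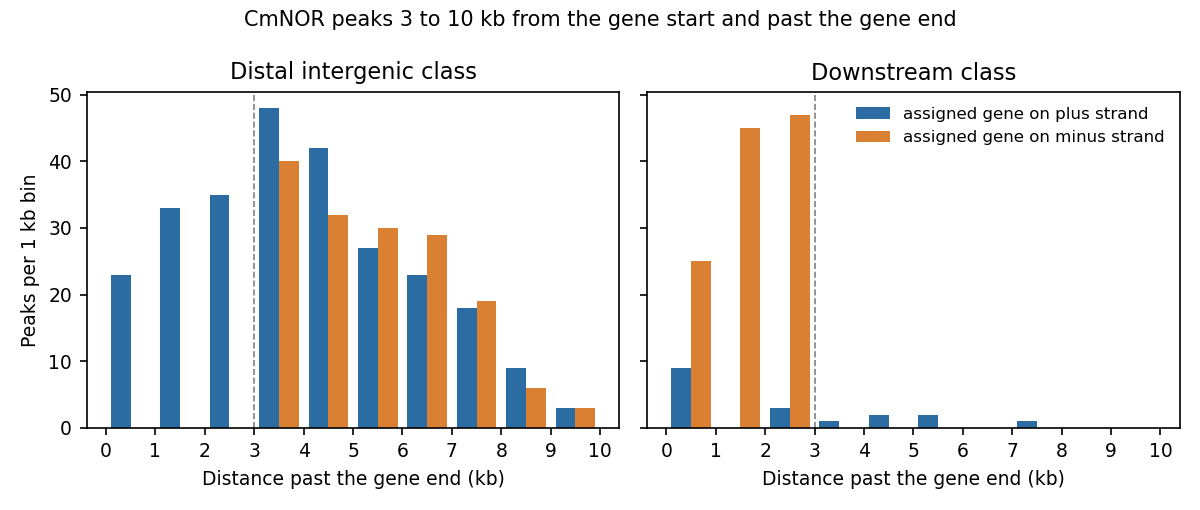
Peaks 3 to 10 kb from the start of the assigned gene and past its end, counted per 1 kb bin of distance past the end, for genes on the plus (blue) and minus (orange) strand, in the distal intergenic class (left) and the downstream class (right). Left of the dashed line at 3 kb, the distal class holds 91 plus-strand and 0 minus-strand peaks and the downstream class 12 and 117.

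The peaks nearest a gene end all followed plus-strand genes of 2840 to 4684 bp. The nearest, on chromosome 3 at 22016602 to 22017108, began 26 bp past the end of MELO3C019927.2 (22012171 to 22016576), annotated with a cleavage step of rRNA processing. The next lay 109 bp past the end of the membrane protein gene MELO3C025174.2 on chromosome 10. A peak on chromosome 7 lay 118 bp past MELO3C017670.2, a GTPase gene. Those of the membrane protein genes MELO3C023014.2 on chromosome 5 and MELO3C020702.2 on chromosome 12 lay 246 and 284 bp past the end. At the other extreme, the 5 genes were 154 to 650 bp long. The farthest peak, on chromosome 9 at 3278718 to 3279037, lay 9550 bp past MELO3C033555.2 (429 bp long), annotated with RNA polymerase activity and the chloroplast. The others were 9426 bp past MELO3C016620.2, 9280 bp past MELO3C021647.2 and 9199 bp past MELO3C004741.2, none of which has a GO term, and 9065 bp past MELO3C012994.2, a transcription factor gene on chromosome 4.

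Downstream distal peaks did not differ detectably in width from upstream ones. The median width was 413 bp, in a range of 299 to 1409 bp (quartiles 350.8 and 495). The median was 414 bp upstream (349.8 and 500.2) and 421 bp over all peaks. Of the 420 peaks, 199 reached the median width of the whole list, 47.4% (42.5 to 52.3), against 390 of 804 upstream, 48.5% (45.0 to 52.0). The odds ratio was 0.956 (0.755 to 1.21, Fisher's exact test, two-sided, adjusted p = 0.72). Width is the one measure of the peak itself in the list, and it is not a measure of enrichment.

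The 10 widest peaks followed genes of unlike function. The widest, 1409 bp on chromosome 4 at 9412685 to 9414093, lay 3227 bp past the end of MELO3C018163.2 (9417320 to 9419702, minus strand), annotated with chloroplast RNA modification. The next, a peak of 1088 bp on chromosome 3, followed MELO3C030101.2, a 228 bp gene with no GO term. The transaminase gene MELO3C030160.2 had a peak of 995 bp and the kinase gene MELO3C027509.2 on chr0 one of 948 bp. The peak of 889 bp on chromosome 12 at 24932667 to 24933555 lay 5436 bp past MELO3C002316.2, a pectinesterase gene, whose product removes methyl groups from pectin in the cell wall. The remaining 5 followed the NAD-dependent protein deacetylase gene MELO3C029498.2 (856 bp), the acyltransferase gene MELO3C024771.2 (846 bp), the membrane protein gene MELO3C017433.2 (829 bp), MELO3C011571.2 without a GO term (827 bp) and the mRNA splicing gene MELO3C000014.2 (767 bp). Of the 10, 1 lay within 3 kb of its gene end, that of MELO3C000014.2 at 2154 bp.

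Neighbouring peaks were less frequent around downstream distal peaks than around upstream ones. Another peak of any class lay within 5 kb of 48 of the 420, 11.4% (8.55 to 14.9), against 136 of 804 upstream, 16.9% (14.4 to 19.7), an odds ratio of 0.634 (0.445 to 0.902, Fisher's exact test, two-sided, p = 0.011, adjusted p = 0.028). The call was lost when the 91 peaks near gene ends were left out, with 40 of 329, 12.2% (odds ratio 0.68, adjusted p = 0.12 by Fisher's exact test), and with a limit of 2 kb, with 20 against 59 peaks (odds ratio 0.631, adjusted p = 0.22). The median gap to the nearest peak was 24208 bp, against 22097 bp upstream, and it was 25190 bp for the 329 peaks far from gene ends and 20424 bp for the 91 near them. Of the 48 nearest neighbours, 30 were distal intergenic, 14 were in the promoter class and 4 in the downstream class. In 42 of the 48 cases the neighbour was assigned to the same gene. In 22 of the 48 the neighbour was itself in the set. Both peaks of such a pair count in the test, which takes them as independent. The 2 sides also differed in median distance from the gene start, 6368 bp downstream and 5548 bp upstream, and the test does not adjust for it.

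A pair of these peaks was found at 10 genes, and 0 genes had more. In all 10 pairs the peaks were 422 to 2302 bp apart. The closest pair, on chr0 at 4859916 to 4860250 and 4860673 to 4861096, was assigned to MELO3C027216.2. The next was 905 bp apart on chromosome 3, past MELO3C029988.2, whose GO terms name a kinase of lipid A synthesis. A gap of 939 bp separated the pair of MELO3C022001.2 on chromosome 9, one of 1027 bp that of MELO3C032427.2 on chromosome 7 and one of 1405 bp that of the peptidase gene MELO3C030483.2 on chromosome 4. The pair with the widest member belonged to MELO3C027509.2, annotated as a kinase, whose peaks of 948 and 461 bp lay 5914 and 3151 bp past its end. The acyltransferase gene MELO3C024771.2 had peaks of 846 and 548 bp, 3226 and 6094 bp past its end. The hydrolase gene MELO3C021901.2 had peaks of 323 and 642 bp, and MELO3C008214.2, without a GO term, had peaks of 444 and 351 bp. Because both peaks of a pair share a gene and a stretch of sequence, they are not independent observations of it.

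For most of these genes the downstream peak was the only one listed. Of the 410 genes, 306 (74.6%) had no other peak, 94 (22.9%) had a peak outside the set, 32 (7.80%) had one in the promoter class and 19 (4.63%) had a distal peak 3 to 10 kb upstream as well. Most genes of the whole list also had 1 peak, with 5493 peaks at 4510 genes. Counted by peak, 114 of 420 belonged to a gene with another peak, 27.1% (22.9 to 31.7), against 231 of 804 upstream, 28.7% (25.6 to 32.0). This difference did not pass Fisher's exact test (odds ratio 0.924, 0.71 to 1.2, adjusted p = 0.72). For a promoter-class peak at the gene, the counts were 32 of 420 (7.62%) against 76 of 804 upstream (9.45%). That odds ratio was 0.79 (adjusted p = 0.42 by Fisher's exact test).

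**Figure D3:**
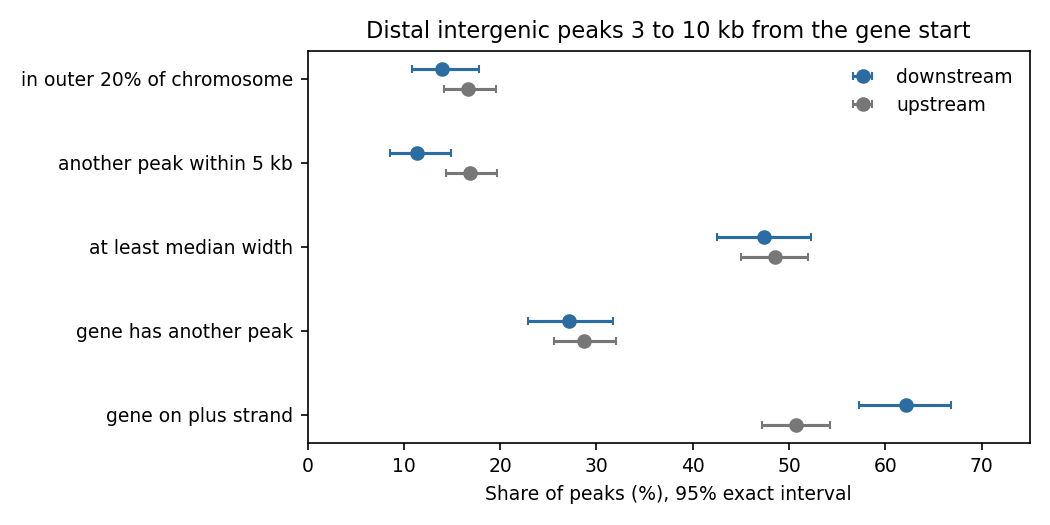
Shares of downstream (blue) and upstream (grey) distal intergenic peaks 3 to 10 kb from the gene start that have each property, in percent, with 95% exact intervals. The plus-strand share is 62.1% against 50.7% and the share with a neighbour within 5 kb is 11.4% against 16.9%, and the intervals overlap in every pair but that of the plus strand.

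The peaks occurred on all 12 numbered chromosomes and on chr0, and took their lowest shares of the list near chromosome ends. On the numbered chromosomes they were 5.28% (chromosome 5, 23 of 436 peaks, 3.37 to 7.81) to 9.88% (chromosome 11, 48 of 486 peaks, 7.37 to 12.9) of all peaks. On chr0, which by convention collects unplaced sequence, they were 21 of 154 peaks, 13.6% (8.64 to 20.1). Their number relative to upstream distal peaks ranged from 0.287 on chromosome 5 (23 against 80) to 0.716 on chromosome 11 (48 against 67). These per-chromosome values were not tested. Along the numbered chromosomes, each divided into 10 equal parts of the span to the last listed peak, they were 4.69% of the peaks in the first part and 3.73% in the last, against 7.30% to 10.9% in the 8 parts between. Upstream distal peaks had low shares at the ends too, 9.53% and 9.85%, against 12.4% to 21.0% between.

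The share of peaks in the outer 20% of the chromosomes did not separate downstream from upstream peaks in the full set. It was 56 of 399, 14.0% (10.8 to 17.8), against 129 of 771, 16.7% (14.2 to 19.6), an odds ratio of 0.813 (0.578 to 1.14, Fisher's exact test, two-sided, adjusted p = 0.40). When the 91 peaks near gene ends were left out it fell to 35 of 311, 11.3% (odds ratio 0.631, adjusted p = 0.041 by Fisher's exact test). Gene density was not measured, so position and the spacing of genes cannot be told apart.

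**Figure D4:**
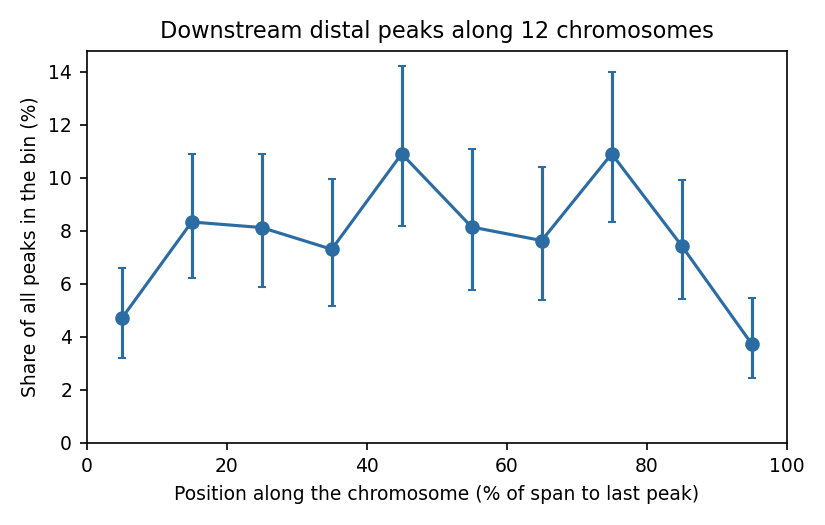
Share of all CmNOR peaks that are downstream distal peaks, in percent with 95% exact intervals, in each of 10 equal parts of the chromosome, summed over the 12 numbered chromosomes. The first and last parts hold 4.69% and 3.73%, and the parts between hold 7.30% to 10.9%.

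Among the ripening-related groups, cell wall genes had the most downstream distal peaks, and they were also the largest of these groups in the whole list. GO terms were available for 272 of the 410 genes, 66.3%, against 547 of 767 genes (71.3%) for the upstream peaks and 3406 of 4510 (75.5%) for the whole list. The cell wall group had 7 of the 272 genes, 2.57% (1.04 to 5.23), against 62 of all 3406 GO-annotated genes of the list, 1.82%. The interval holds the share of the list, so the count is not a difference from it. Besides MELO3C002316.2, described above, they included a further pectinesterase gene, MELO3C002915.2 on chromosome 9, with a peak of 317 bp at 3779 bp past its end. The pectate lyase gene MELO3C019840.2 on chromosome 3, whose product cuts the pectin backbone, had a peak at 23209665 to 23210023, 3485 bp past its end. The polygalacturonase gene MELO3C028601.2 on chromosome 1, also of pectin breakdown, had one 6862 bp past a gene model of 173 bp. The beta-galactosidase gene MELO3C005416.2 on chromosome 9 had a peak at 21416305 to 21416795, 620 bp past its end, the one member of the group within 3 kb. The pectinesterase inhibitor gene MELO3C004157.2 and MELO3C003566.2, annotated to the cell wall and the Golgi apparatus, had peaks 4232 and 3599 bp past their ends.

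The sugar and starch group, made by keyword, held genes of glycolysis and starch metabolism. Of the 4 genes (1.47% against 1.12% of all), the fructose-bisphosphate aldolase gene MELO3C023354.2 on chromosome 11, of glycolysis, had a peak of 584 bp at 4024 bp past its end. The hexokinase gene MELO3C025969.2, whose product phosphorylates glucose, had one of 505 bp at 5912 bp past a gene model of 259 bp. MELO3C014484.2 on chromosome 5 carries terms for starch metabolism and for the response to abscisic acid, a hormone of drought and ripening, and its peak lay 802 bp past its end. MELO3C014906.2 on chromosome 6, annotated with glycolysis and the ribosome, had a peak 297 bp past its end. In the pigment and aroma group the 1 gene was MELO3C026802.2 on chromosome 8, of chlorophyll synthesis, with a peak of 310 bp at 4983 bp. The ethylene group had 0 of the 272 genes, which allows a share of up to 1.10%. It has 3 genes in the whole list, so this count decides nothing.

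Hormone genes other than MELO3C014484.2 had their peaks more than 4 kb past their ends. The auxin genes were MELO3C033147.2 on chromosome 8, with a peak of 586 bp at 7660 bp, and MELO3C025811.2 on chromosome 4, annotated with auxin transport and signalling, with one of 363 bp at 4968 bp. MELO3C005397.2 on chromosome 9 is annotated as a gibberellin 3-beta-dioxygenase, an enzyme that makes active gibberellin, and its peak of 509 bp lay at 21252944 to 21253452, 4146 bp past the end. MELO3C012494.2 on chromosome 10 responds to cytokinin by its terms and had a peak 5463 bp past its end. MELO3C015155.2 on chromosome 2, a gene of transcription and the gibberellin response, had one 4596 bp past its end. MELO3C022678.2 on chromosome 4, annotated with regulation of transcription, of jasmonic acid signalling and of defense, had one 4270 bp past its end.

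Transcription genes made up 17 of the 272, 6.25% (3.68 to 9.82), against 7.31% of all GO-annotated genes and 9.32% of those of the upstream peaks. Their peaks had a median width of 394 bp and a median distance of 4692 bp past the gene end, and 4 of the 17 lay within 3 kb. The widest, 631 bp, lay 3267 bp past MELO3C019337.2 on chromosome 11. MELO3C016356.2 on chromosome 7 had a peak of 486 bp at 3238 bp, and MELO3C007500.2 on chromosome 8 one of 472 bp at 432 bp past its end. The peak of MELO3C033464.2 on chromosome 8 was 468 bp wide and that of MELO3C022985.2 on chromosome 5, annotated as a DNA-binding transcription factor, 432 bp wide and 7068 bp past its end. The list pairs identifiers with GO terms only, so which of these belong to the NAC family is not known here.

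Protein breakdown was the largest of the 20 GO groups by number of genes. It had 20 genes with 21 peaks, 7.35% (4.55 to 11.1), against 5.17% of all GO-annotated genes and 6.03% of those of the upstream peaks. The group includes peptidase inhibitors and a proteasome subunit, MELO3C025735.2 on chromosome 11, with a peak 4013 bp past its end. The widest peaks were those of the peptidase gene MELO3C010558.2 on chromosome 7 (709 bp), the metalloendopeptidase gene MELO3C010038.2 on chromosome 2 (615 bp) and the cysteine-type peptidase gene MELO3C032029.2 on chromosome 6 (560 bp). Of the 21 peaks, 1 lay within 3 kb of the gene end, where 21.7% of the whole set lay. The protein kinase group, which includes a kinase inhibitor gene, had 12 genes (4.41% against 5.23% of all), and 6 of its 12 peaks lay there. Neither count was tested. Kinase peaks included one of 672 bp at 1499 bp past MELO3C011517.2, one of 490 bp past MELO3C032079.2, a gene of kinase activation and microtubules, and one of 469 bp past MELO3C001212.2 on chr0.

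The transport group had few members, all of them with terms for transmembrane transport. Its 6 genes were 2.21% of the 272 (0.814 to 4.74), against 5.02% of all GO-annotated genes and 4.75% of those of the upstream peaks. They included the membrane transport genes MELO3C006927.2 (538 bp) and MELO3C025699.2 (418 bp) and the sodium:proton antiporter gene MELO3C027105.2 (388 bp). Genes with other transport terms were not counted, such as MELO3C008943.2 (metal ion transport) and MELO3C031342.2 (carbohydrate transport). The interval of the share does not hold the value of the whole list, but 20 groups were looked at and none was tested.

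The remaining groups, from 1 to 13 genes each, held between 0.368% and 4.78% of the 272 genes. In RNA processing, with 13 genes (4.78% against 4.02% of all), MELO3C013052.2 on chromosome 4 had a peak of 720 bp at 1487 bp past its end, next in width to those of MELO3C018163.2 and MELO3C000014.2. In translation, with 12 genes (4.41% against 3.76%), the tRNA aminoacylation gene MELO3C017627.2 had a peak of 590 bp, the mitochondrial ribosomal protein gene MELO3C015621.2 one of 504 bp and the ribosomal protein gene MELO3C031193.2 one of 441 bp. The oxidoreductase group had 13 genes (4.78% against 6.46%), among them MELO3C005397.2, MELO3C024745.2 (469 bp) and MELO3C016226.2 (455 bp). The cytoskeleton group had 9 genes (3.31% against 2.03%), among them the actin-binding genes MELO3C006994.2 (542 bp, 1708 bp past its end) and MELO3C023830.2 (489 bp, 1373 bp past its end). Defense had 5 genes (1.84% against 1.56%), among them MELO3C009863.2, also annotated as a ubiquitin transferase (442 bp), and MELO3C018325.2 (438 bp).

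Of the smallest groups, ubiquitin had 4 genes (1.47% against 1.76% of all), including MELO3C031717.2 (381 bp, 2267 bp past its end), and trafficking had 4 (1.47% against 2.14%). The trafficking genes included MELO3C000374.2 on chr0, annotated to COPI-coated vesicles (657 bp), and MELO3C008415.2 of the trans-Golgi network (398 bp). DNA and chromatin had 2 (0.735% against 2.00%), the histone-binding gene MELO3C020011.2 (394 bp) and the chromatin-binding gene MELO3C000805.2 (353 bp). Calcium had 1 (0.368% against 1.38%), the calcium ion binding gene MELO3C020263.2 on chromosome 6 (587 bp, 3400 bp past its end). A gene can be in several groups, no group was tested, and all group shares are of the full set, near and far peaks together.

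**Figure D5:**
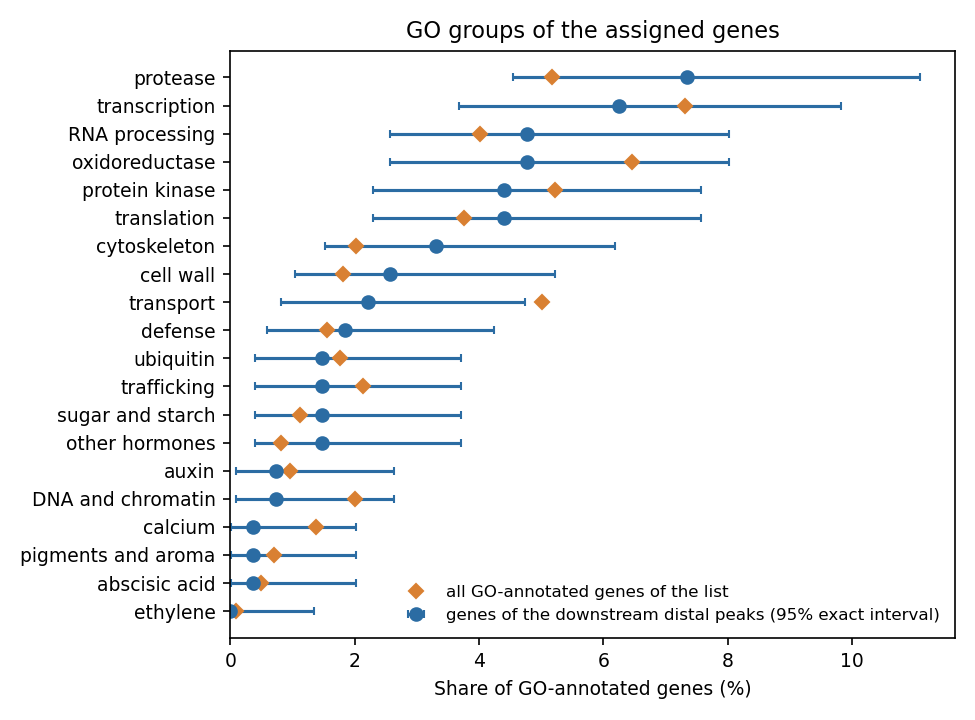
Share of GO-annotated genes in each of 20 GO groups, in percent, for the 272 genes of the downstream distal peaks (blue circles, 95% exact intervals) and all 3406 of the list (orange diamonds). Protein breakdown (protease) is highest at 7.35% against 5.17%, and transport is at 2.21% against 5.02%.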

How the data were processed

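Peaks came from DAP-seq of 2 MBP-His-CmNOR and 2 MBP-His libraries. The tools named in the submitters' processing notes are the peak caller MACS2 and deepTools. No source used here gives the versions, thresholds, aligner, build, annotation or rule for combining libraries, so how many weak peaks are listed, and whether each was seen in both libraries, is unknown. The authors deposited 1 list of 5493 peaks, with positions, widths and distances in bp per the file headers and no value per library. For all 5493 peaks the listed width and distance were those computed from the coordinates. Of the 4510 gene identifiers, 0 matched the RefSeq gene table of assembly USDA_Cmelo_AY_1.0, and genes carry their listed identifier and GO terms.

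Computed from the list were how far past the end of the assigned gene the nearer peak edge lay, the gap to the nearest other peak, position along each sequence up to its last listed peak, and GO groups by keyword. Shares have 95% exact (Clopper-Pearson) intervals. A count of 0 was taken to allow 3 counts. The counts on both sides are given as a ratio with its exact binomial interval, without the test against equal counts that had been planned, since class and distance chose the peaks. The 5 shares were compared by Fisher's exact test with Benjamini-Hochberg adjustment over the 5 (threshold 0.05), tested on simulated data. GO groups were not tested. The CmNOR-against-control test planned for counts per library was not run.

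The peaks, groups and tests were chosen with earlier results of these data known. The peaks and genes named are the 10 widest, the 5 nearest to and 5 farthest past the gene end, up to 5 genes with a pair of these peaks, up to 5 closest pairs, up to 6 genes in each ripening, hormone and transcription group and up to 3 in each other group, by width. MELO3C025735.2 among the peptidases was named after its values were seen. The keyword for actin was narrowed to the whole word after it was seen to match "acting", and the split at 3 kb past the gene end was added after seeing the data, as was joining the distal and downstream classes. Alternatives were other end sizes, gaps and width limits, peak centres, short genes, wide peaks and leaving out chr0. The software was Python 3.11.15 with scipy 1.17.1, matplotlib 3.10.9, pandas 2.3.3 and numpy 2.4.6.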

Additional observations from a re-analysis of the deposited data

How the results depend on the processing

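Of 21 alternative values over the 6 comparisons with upstream peaks, 17 kept their direction and, where tested, their side of the threshold. The other 4 were odds ratios, with p from Fisher's exact test. That for a neighbouring peak, 0.634, was 0.631 with a gap of 2 kb (exact adjusted p = 0.22) and 0.68 in the 329 peaks more than 3 kb past the gene end (adjusted p = 0.12). The first setting counts fewer neighbours among the same peaks. The second leaves fewer peaks, and its share was 12.2% where the full set had 11.4%. The cause was not tested for either. That for the plus strand, 1.59, was 1.04 in those 329 peaks (exact adjusted p = 0.79), since the 91 left out were all on plus-strand genes. That for chromosome ends, 0.813, was 0.631 in them (exact adjusted p = 0.041), and the cause was not tested. That p was adjusted with the other 4 p-values of the full set, so it gives no call within the 329 peaks. The downstream-to-upstream ratio ran from 0.409 in the same 329 peaks to 0.71 for genes of at most 3 kb. The value 0.409, among the 17, could only be lower, since the 91 peaks left the downstream count alone. It is therefore no check of direction. No paired analysis was possible because the list holds no value per library, and leaving out a replicate was not possible for the same reason. Peak strength and library depth are unknown, so weak and strong sites count alike.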

Other observations

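The division by strand was seen in the whole list, whichever gene a peak was assigned to. Of all 2563 distal intergenic peaks, 101 lay within 3 kb past the end of some plus-strand gene of the list and 0 within 3 kb past the end of a minus-strand gene. Of the 169 peaks of the authors' downstream class, 14 and 132 did. In the promoter class, which is set by distance from the gene start, the counts were 162 and 174. Within the downstream class, 124 peaks lay 1 to 3000 bp past the end of an assigned minus-strand gene, and the 1 kb band named in the label was the measured one in 124 of the 124. For the 14 on plus-strand genes it was so in 6. The 3' UTR class was also unequal, with 31 of 41 peaks assigned to plus-strand genes, 75.6% (95% exact interval 59.7 to 87.6), and so was the intron class, with 155 of 268, 57.8% (51.7 to 63.8). The exon class had 118 of 238, 49.6%. How the classes were made was not tested.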
